A study of Mus musculus with 6 samples.

Results

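Retinoic acid is a small hormone made from vitamin A, and this account follows 9 mouse genes that move, make, break down or sense it. They are Stra6, Crabp1, Crabp2, Rdh10, Dhrs3, Aldh1a2, Cyp26a1, Rarb and Rarg, chosen by name from the retinoid pathway. These genes, and the lists and markers below, were chosen with earlier results of these data known. All 9 were found on the arrays, through 12 probes, among 16151 named genes tested. Expression was measured with one-colour Agilent arrays in 3 kinds of pluripotent mouse cell of strain 129, each grown with and without SB431542. The treated groups are E3.5 EpiSC + SB431542, E5.5 EpiSC + SB431542 and mES + SB431542, and the untreated ones are E3.5 EpiSC, E5.5 EpiSC and mES. Epiblast stem cells, or EpiSCs, stand for the primed state of pluripotency found in the epiblast after implantation. The EpiSC lines carry the developmental stages E3.5 and E5.5 in their labels, and mouse embryonic stem (mES) cells, the naive pluripotent cells of the blastocyst, carry E3.5. SB431542 is an inhibitor of the receptor kinases through which Activin, Nodal and TGF-beta signal, given at 20 µM each day over 4 days. All 6 groups were grown in Knockout DMEM with KSR. Each group is 1 array of 1 line, and the labels do not say whether feeder cells were present.

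Retinol can enter cells through the membrane receptor Stra6. Rdh10 oxidises it to retinaldehyde, Dhrs3 reduces retinaldehyde back to retinol, and Aldh1a2 oxidises retinaldehyde to retinoic acid. Crabp1 and Crabp2 bind retinoic acid in the cytoplasm, Cyp26a1 degrades it, and the nuclear receptors Rarb and Rarg carry its signal to target genes. In the early mouse embryo this balance of synthesis and breakdown patterns the hindbrain and trunk, and added retinoic acid drives pluripotent cells to differentiate, often toward neural fates.

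Levels below are log2 signals with the array's own 75th percentile set to 0, and values of different probes are not set against each other. The scanner program marked 82.6% to 85.7% of the gene spots of each array as well above background and 0 as saturated, and the 12 probes of the 9 genes were well above background on all 6 arrays. The 7 naive markers fixed for the check (among them Zfp42 and Esrrb) summed to 153 and 118 times the 75th-percentile signal in treated and untreated mES cells, against 1.64 to 2.78 on the 4 EpiSC arrays. The pluripotency factor Pou5f1 stood at -5.39 and -4.38 in the treated E3.5 and E5.5 EpiSCs, and at 5.73 and 5.88 in the untreated ones. The 7 neural progenitor markers summed to 120 and 112 in the treated E3.5 and E5.5 EpiSCs, against 7.64 and 4.43 in the untreated ones, and to 2.34 and 2.33 in treated and untreated mES cells. Such sums add different probes and are led by the brightest, here Hes5, Zic1 and Nes on the treated EpiSC arrays. All 7 estimates for SB431542 in EpiSCs were positive, with a median of 3.11 beside -0.19 over all genes. Of the 7 markers 3 rose (limma, 0.892% of all genes rose). Sox1 and Sox3 moved by less than 2-fold in each EpiSC line, Sox1 from -2.75 to -2.38 in E3.5 and from -2.80 to -2.04 in E5.5 cells. The 13 fibroblast markers were above background everywhere, with sums of 70.3 and 120 in treated and 77.7 and 122 in untreated E3.5 and E5.5 EpiSCs, and of 58.7 and 44.5 in treated and untreated mES cells. Their median level moved in opposite directions in the EpiSC lines, at 1.28 in treated and 0.32 in untreated E3.5 cells, and at 0.81 in treated and 2.17 in untreated E5.5 cells. The 4 primed epiblast markers summed to 3.14 and 5.60 in the treated E3.5 and E5.5 EpiSCs, against 36.6 and 48.5 in the untreated ones. The 6 markers of primitive streak and mesoderm summed to 0.643 and 0.616 in the treated E3.5 and E5.5 EpiSCs, against 4.29 and 3.64 in the untreated ones. Both sets were lower on the treated EpiSC arrays, where Dhrs3, Cyp26a1 and Rarg were lower too. The part of these other cell types in the results below was not tested. In bulk RNA, fewer cells of a type and less RNA per cell cannot be told apart. Slide 1 carried the mES and E5.5 EpiSC arrays, treated and untreated, and the treated and untreated E3.5 EpiSC arrays lay on slides 3 and 2. The E5.5 and mES values are therefore within-slide values, and the 4-arm fit with slide as a block has no residual degrees of freedom and returns them. Neither the line difference between E3.5 and E5.5 EpiSCs nor, within the E3.5 line, SB431542 can be told apart from the slide, so the E5.5 pair is the within-slide value for SB431542 in EpiSCs.

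Of the 9 genes, 7 had a matched promoter window, and 2 of these hold a direct repeat of the kind that retinoic acid receptors bind. Their sequences are shown because the estimates of these genes with SB431542 in EpiSCs differ in sign. With the lines as plain replicates neither estimate passed (limma, adjusted p = 0.249 for Cyp26a1 and 0.291 for Rarb). The search used the half-sites AGGTCA or GGGTCA and AGTTCA or GGTTCA, in any pairing, repeated in the same orientation on either strand with 5 bases between them, in windows of 300 bases from RefSeq (GRCm38.p6) that run from 250 bases before to 50 after a gene's start. In the lines below, read 5′ to 3′ on the gene's strand, the capitals mark the half-sites of the matched repeat. Any other half-site in a stretch stays in lower case. The Rarb stretch lies at chr14:16575483-16575574 on the minus strand, with its repeat at -53 to -37 from the start. The Cyp26a1 stretch lies at chr19:37697731-37697807 on the plus strand, with its repeat at -32 to -16, where the half-sites read on the opposite strand.
Rarb: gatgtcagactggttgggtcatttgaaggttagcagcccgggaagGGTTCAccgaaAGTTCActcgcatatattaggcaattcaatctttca
Cyp26a1: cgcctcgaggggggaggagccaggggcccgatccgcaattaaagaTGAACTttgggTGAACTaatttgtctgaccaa
Of 32851 promoters, 32 (0.0974%) held such a repeat, and of 27025 genes with a promoter 31 (0.115%). With a spacing of 2 bases the share of promoters was 0.268% and with 1 base 0.222%, and none of the 7 matched genes was among those. RefSeq windows were matched for 7 of the 9 genes, all but Crabp2 and Rdh10. A match is a description of letters and not of binding.

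Both binding proteins were higher in the treated EpiSCs. Crabp2, which delivers retinoic acid to its nuclear receptors, stood at 3.31 and 4.17 in the treated E3.5 and E5.5 EpiSCs, against -0.08 and -0.62 in the untreated ones. In mES cells it was at -1.21 with SB431542 and at -1.77 without. Both treated EpiSC arrays lay far above the untreated ones. How many of all genes separate treated from untreated EpiSC arrays in this way was not counted. Crabp2 rose 17-fold in EpiSCs, by 4.09 ± 0.42 on the log2 scale (SE, n = 2 treated and 2 untreated EpiSC arrays, limma over all 16151 genes, adjusted p = 0.0338). Untreated EpiSCs exceeded untreated mES cells by 1.42 ± 0.51, which did not pass (limma, adjusted p = 0.282).

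Crabp1, which also binds retinoic acid in the cytoplasm, stood at 5.46 and 7.36 in the treated E3.5 and E5.5 EpiSCs, against 3.19 and 2.83 in the untreated ones. It was at 1.93 and 1.28 in treated and untreated mES cells. The order over the arrays was the same as for Crabp2, but the treated lines were 1.9 apart, and the estimate of 3.40 ± 0.68 (10.5-fold) did not pass the test (limma, adjusted p = 0.0951). The ratio was 4.81-fold in the E3.5 pair and 23.1-fold in the E5.5 pair. Untreated EpiSCs were 1.73 ± 0.83 above untreated mES cells, which did not pass either (limma, adjusted p = 0.419).

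Stra6, the receptor that takes up retinol from its carrier protein, varied little with SB431542 and spanned 2.83-fold over the 6 arrays. It stood at 0.94 and 1.34 in the treated E3.5 and E5.5 EpiSCs, against 0.43 and 1.48 in the untreated ones, and at 0.21 and -0.03 in treated and untreated mES cells. The treated and untreated EpiSC values overlapped, and all 4 lay above both mES values. The estimate for SB431542 in EpiSCs was 0.19, with a 95% interval from -0.98 to 1.35 (limma, adjusted p = 0.826). Untreated EpiSCs were 0.98 ± 0.54 above untreated mES cells, which did not pass (limma, adjusted p = 0.489).

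**Figure D1:**
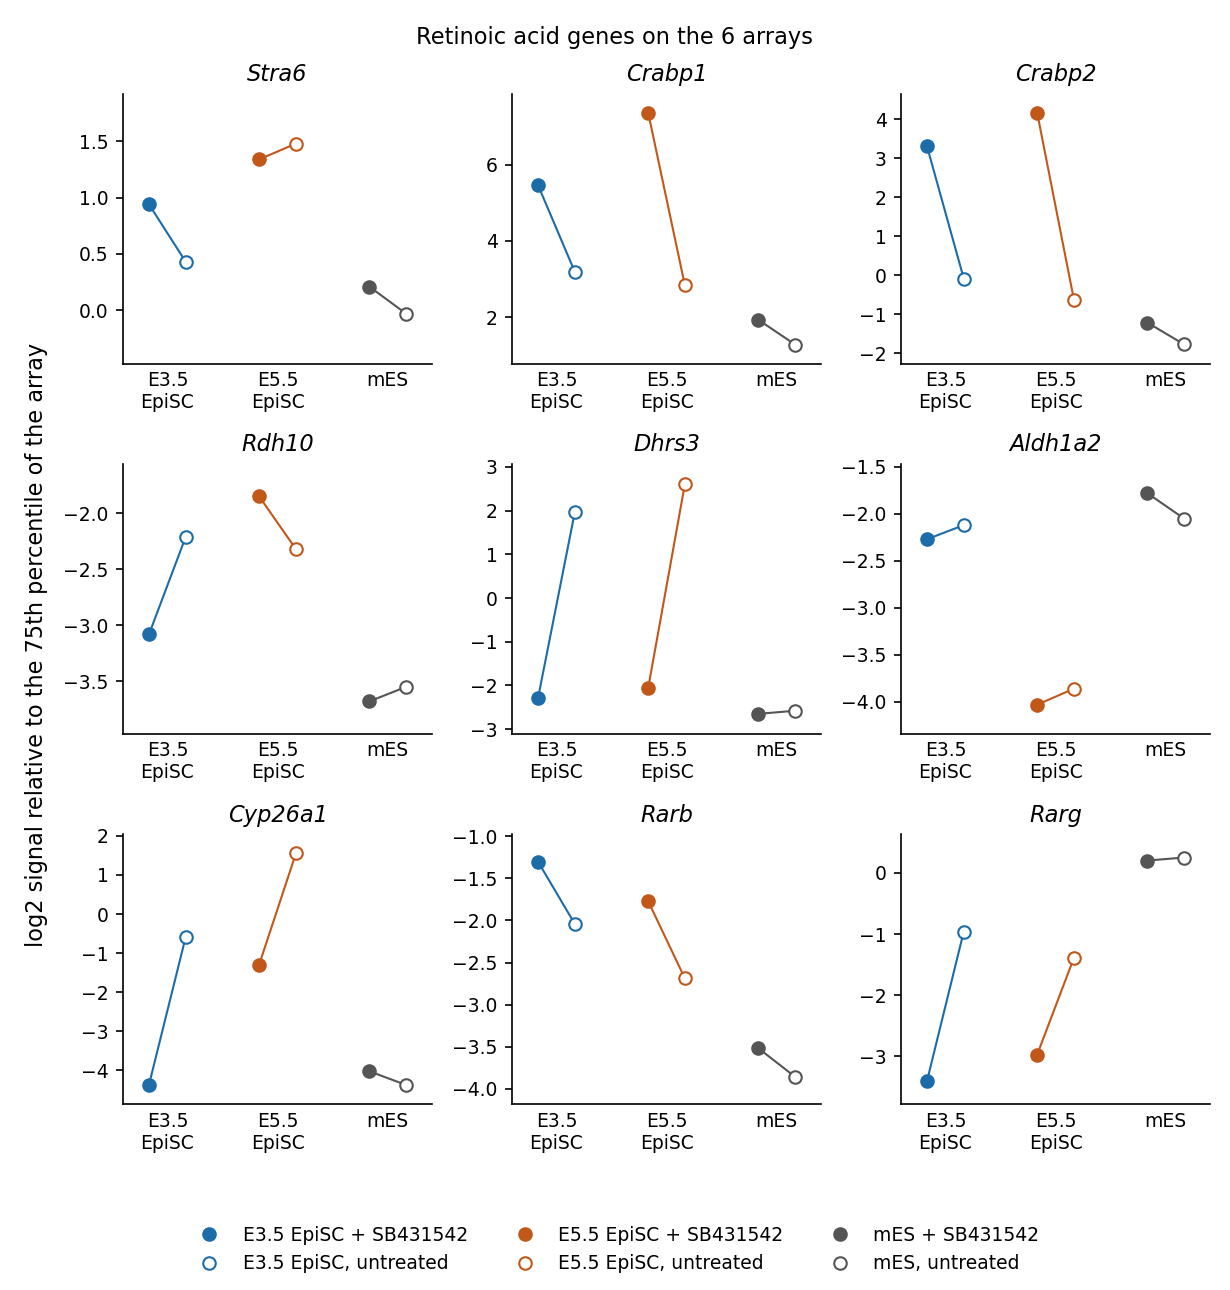
Level of each of the 9 genes on each of the 6 arrays, as log2 signal relative to the array's 75th percentile; filled points are SB431542-treated, open points untreated, and each line joins the pair of 1 cell line. Dhrs3, Cyp26a1 and Rarg lay lower and Crabp1 and Crabp2 higher in both treated EpiSC lines, while the mES pairs lay within 0.65 of each other; the vertical scales differ between panels.

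Of the enzymes that handle retinol and retinaldehyde, Dhrs3 changed most. This reductase, which returns retinaldehyde to retinol, stood at -2.29 and -2.06 in the treated E3.5 and E5.5 EpiSCs, against 1.96 and 2.61 in the untreated ones. In mES cells it was at -2.65 with SB431542 and at -2.58 without. The untreated EpiSC arrays stood alone at the top, and the 4 other arrays followed each other at gaps of 0.07 to 0.29, below the fit's residual SD of 0.34. With SB431542 in EpiSCs, Dhrs3 was 22-fold lower. In log2 terms it fell by 4.46 ± 0.34 (SE, n = 2 treated and 2 untreated EpiSC arrays, limma, adjusted p = 0.0253). It rose 29.1-fold in untreated EpiSCs over untreated mES cells, by 4.86 ± 0.42 (SE, n = 2 EpiSC arrays and 1 mES array, limma, adjusted p = 0.0235). Its second, dimmer probe gave -3.75 ± 0.49 for SB431542 in EpiSCs (limma over 37254 probes, adjusted p = 0.0496) and 3.64 ± 0.60 for EpiSCs over mES cells, which did not pass over the probes (adjusted p = 0.0835).

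Rdh10, which makes retinaldehyde from retinol, stood at -3.08 and -1.85 in the treated E3.5 and E5.5 EpiSCs, against -2.21 and -2.32 in the untreated ones, and at -3.68 and -3.55 in treated and untreated mES cells. The pairs of the EpiSC lines moved in opposite directions, and both mES values lay below all 4 EpiSC values. The estimate for SB431542 in EpiSCs was -0.20, with a 95% interval from -1.44 to 1.05 (limma, adjusted p = 0.831), and that for EpiSCs over mES cells was 1.28 ± 0.58 (limma, adjusted p = 0.392). On a second Rdh10 probe the mES values lay among the EpiSC values, at -3.28 with SB431542 and -3.50 without, against -4.26 and -3.03 in treated and -2.58 and -3.19 in untreated E3.5 and E5.5 EpiSCs.

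Aldh1a2, the enzyme that makes retinoic acid in the mesoderm of the early embryo, differed by line and little by treatment. It stood at -2.27 and -4.03 in the treated E3.5 and E5.5 EpiSCs, against -2.12 and -3.86 in the untreated ones, and at -1.78 and -2.05 in treated and untreated mES cells. Both E5.5 EpiSC arrays were low, and the other 4 followed each other at gaps of 0.07 to 0.27. For SB431542 in EpiSCs the estimate was -0.16, with a 95% interval from -2.39 to 2.06 (limma, adjusted p = 0.921).

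Cyp26a1, which degrades retinoic acid, stood at -4.36 and -1.29 in the treated E3.5 and E5.5 EpiSCs, against -0.58 and 1.55 in the untreated ones. It was at -4.02 and -4.37 in treated and untreated mES cells. Each treated EpiSC array lay far below its own untreated pair, 13.8-fold in the E3.5 line and 7.15-fold in the E5.5 line, and the E5.5 line was the higher in both states. With the lines as plain replicates, that gap between lines counts as error, and the estimate of -3.31 ± 1.25 did not pass (limma, adjusted p = 0.249). With the cell line as a block, Cyp26a1 fell by 3.31 ± 0.36 (SE, n = 2 pairs of EpiSC arrays, limma, adjusted p = 0.0224). That fit has 1 residual degree of freedom, and the arrays of the E3.5 pair lay on different slides. Untreated EpiSCs were 4.85 ± 1.53 above untreated mES cells, 28.9-fold, which did not pass (limma, adjusted p = 0.23), with single-line values of 3.79 and 5.92 for E3.5 and E5.5.

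The related gene Cyp26b1, whose enzyme also degrades retinoic acid, went the other way. It stood at 3.92 and 3.69 in the treated E3.5 and E5.5 EpiSCs, against -1.19 and 0.02 in the untreated ones, and at -0.50 and -1.58 in treated and untreated mES cells. Both treated EpiSC arrays lay above all the others. Cyp26b1 rose 20.9-fold with SB431542 in EpiSCs, by 4.39 ± 0.48 (SE, n = 2 treated and 2 untreated EpiSC arrays, limma, adjusted p = 0.0345).

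Of the receptors, Rarg, the retinoic acid receptor gamma, stood at -3.40 and -2.97 in the treated E3.5 and E5.5 EpiSCs, against -0.96 and -1.39 in the untreated ones, and at 0.20 and 0.25 in treated and untreated mES cells. The 3 pairs formed separate steps, mES cells at the top, untreated EpiSCs below and treated EpiSCs lowest. The estimates were -2.01 ± 0.32 for SB431542 in EpiSCs (limma, adjusted p = 0.0634) and -1.42 ± 0.39 for EpiSCs over mES cells (limma, adjusted p = 0.186), and neither passed. The first of these passed when only genes well above background on all 6 arrays were tested (14476 genes, adjusted p = 0.0396) and with normexp background correction (adjusted p = 0.0451). A second Rarg probe gave -1.89 and -1.72 in the same comparisons.

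Rarb, the retinoic acid receptor beta, whose gene is itself a classical target of retinoic acid, stood at -1.30 and -1.77 in the treated E3.5 and E5.5 EpiSCs, against -2.04 and -2.69 in the untreated ones, and at -3.52 and -3.86 in treated and untreated mES cells. Its probe was printed repeatedly, and the SD of the 9 or 10 spots kept on an array ran from 0.052 to 0.224 on the log2 scale, which is the technical spread within an array. The treated value was the higher in each line. Between the EpiSC groups, the lowest treated and the highest untreated value were 0.27 apart, below the fit's residual SD of 0.36. The estimate of 0.83 ± 0.36 for SB431542 in EpiSCs did not pass (limma, adjusted p = 0.291). Nor did the difference of 1.5 ± 0.45 between untreated EpiSCs and mES cells (limma, adjusted p = 0.211).

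**Figure D2:**
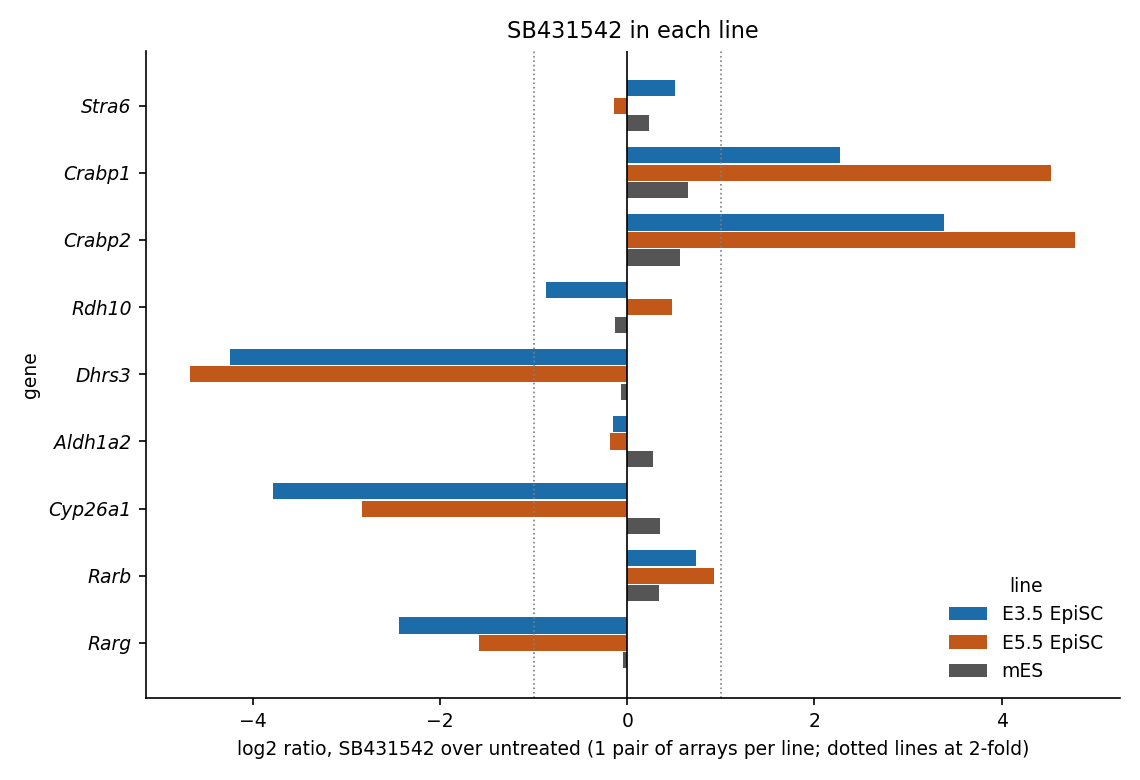
Log2 ratio of SB431542 over untreated for the 9 genes, 1 bar per cell line, each from 1 pair of arrays; dotted lines mark 2-fold. Crabp1 and Crabp2 exceeded 2-fold upward and Dhrs3, Cyp26a1 and Rarg downward in both EpiSC lines, and no mES bar reached 2-fold.

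Set line by line, the same 5 of the 9 genes passed 2-fold in both EpiSC lines, and 0 of 9 did so in mES cells. In the E3.5 pair 2 genes were past 2-fold higher (Crabp1 and Crabp2; 11.4% of all tested genes were) and 3 past 2-fold lower (Dhrs3, Cyp26a1 and Rarg; 19.7% of all genes were). In the E5.5 pair the same 2 were higher, against 6.48% of all genes, and the same 3 lower, against 8.75%. How many of all genes passed 2-fold the same way in both EpiSC lines was not counted. In the mES pair 1.41% of all genes were past 2-fold higher and 1.13% lower, so a count of 0 among 9 is near the background. Ratios in mES cells ran from -0.13 for Rdh10 to 0.65 for Crabp1. Single pairs of arrays carry no test.

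In the test over both EpiSC lines, 1 of the 9 genes rose with SB431542 (Crabp2; 0.892% of the 16151 genes rose) and 1 fell (Dhrs3; 1.2% fell). The median estimate of the 9 genes was -0.16, beside -0.19 over all genes. With the cell line as a block, 1 rose (2.14% of all genes) and 2 fell, Cyp26a1 joining Dhrs3 (2.87% of all genes), and over all genes 810 passed in place of 338. Between untreated EpiSCs and mES cells 1 of the 9 rose (Dhrs3; 0.39% of all genes rose) and 0 fell (1.11% of all genes fell), with 2642 genes over the whole table at an unadjusted p under 0.05. There the 9 genes had a median of 1.42, beside -0.06 over all genes, and 7 of 9 estimates were positive. Both comparisons share the untreated EpiSC arrays. Leaving out either treated EpiSC array ended the calls, while the estimates stayed about as large. Without the E5.5 one, Dhrs3 was at -4.57 (adjusted p = 0.0719) and Crabp2 at 3.65 (adjusted p = 0.0748) for SB431542 in EpiSCs. Without the E3.5 one, Dhrs3 was at -4.34 and Crabp2 at 4.52, both at an adjusted p of 0.141 (limma). The difference of Dhrs3 between EpiSCs and mES cells, to which the treated arrays give only the spread, stayed at 4.86 without either, at an adjusted p of 0.0901 (limma).

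**Figure D3:**
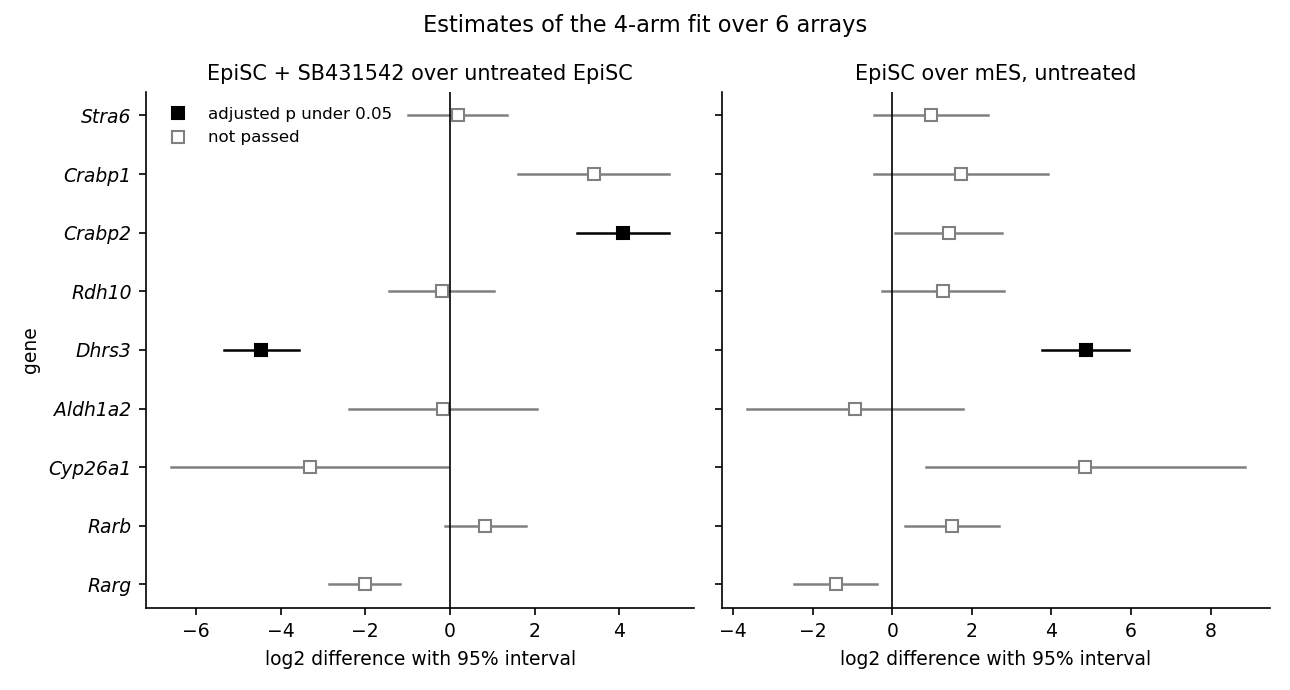
Estimated log2 differences of the 9 genes with 95% intervals, for SB431542-treated over untreated EpiSCs (left) and for untreated EpiSCs over untreated mES cells (right), from 1 fit over 6 arrays; black squares passed an adjusted p of 0.05. Dhrs3 stands at -4.46 on the left and 4.86 on the right, Crabp2 passed on the left only, and Cyp26a1 has the widest interval in both panels.

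To ask whether the response depended on the class of cell, the ratio in mES cells was subtracted from that in EpiSCs. For Dhrs3 this gave -4.38 ± 0.59 (limma, adjusted p = 0.3), for Crabp2 3.53 ± 0.72 (adjusted p = 0.396), for Cyp26a1 -3.66 ± 2.16 (adjusted p = 0.855), for Crabp1 2.75 ± 1.18 (adjusted p = 0.784) and for Rarg -1.96 ± 0.56 (adjusted p = 0.541). None of the 9 passed, nor did any of the 16151 genes (0%; 1110 at an unadjusted p under 0.05, limma), so a difference in response between the classes was not shown. In a fit of line plus treatment over all 3 lines, none of the 9 passed for SB431542 (0% of all genes passed; 1397 at an unadjusted p under 0.05, limma). The estimates were 2.91 ± 0.86 for Crabp2, 2.48 ± 0.78 for Crabp1, -3.0 ± 1.0 for Dhrs3 and -2.09 ± 0.86 for Cyp26a1, all at an adjusted p of 0.502. With slide 1 alone, which is also what slide as a block leaves, Dhrs3 was at -2.37 ± 1.33 and Crabp2 at 2.67 ± 1.23, both at an adjusted p of 0.98, and 0 of all genes passed (378 at an unadjusted p under 0.05, limma).

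Between the untreated EpiSC lines, with 1 array each and no test, 2 of the 9 genes were past 2-fold higher in E5.5 than in E3.5 cells (5.93% of all genes were) and 1 past 2-fold lower (3.75% of all genes were). Cyp26a1 was 4.37-fold and Stra6 2.06-fold higher, and Aldh1a2 3.34-fold lower. The log2 ratios of the other 6 genes ran from -0.66 for Rarb to 0.65 for Dhrs3.

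Other genes of the pathway were taken as 3 lists, also chosen with earlier results of these data known. Their counts beside the shares of all genes are therefore descriptions. Of 34 genes of retinoid transport and metabolism, 26 were tested. In treated EpiSCs Cyp26b1 rose (0.892% of all genes rose), 0 fell (1.2% of all genes fell) and 25 did not pass, with a median of -0.49 beside -0.19 over all genes. Rdh5, a retinol dehydrogenase best known from the visual cycle, was at -0.03 and 1.23 in the treated E3.5 and E5.5 EpiSCs, against -1.77 and -1.34 in the untreated ones. Its estimate of 2.15 ± 0.50 passed only with the cell line as a block (limma, adjusted p = 0.122 without the block and 0.043 with it). The retinol carrier Rbp4 (-1.78) did not pass. Between untreated EpiSCs and mES cells, Rbp7, a cellular retinol-binding protein, fell by 4.01 ± 0.42 (limma, adjusted p = 0.0348). It stood at -3.73 and -3.01 in untreated E3.5 and E5.5 EpiSCs, against 0.64 in untreated mES cells. In that comparison the list had a median of 0.35, beside -0.06 over all genes.

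All 20 receptor and cofactor genes were tested, and 0 passed with SB431542 in EpiSCs or between untreated EpiSCs and mES cells (limma). The shares of all genes that rose and fell were 0.892% and 1.2% in the first comparison and 0.39% and 1.11% in the second, so a count of 0 among 20 is near the background. Rxra, the retinoid X receptor alpha that pairs with retinoic acid receptors, was at 2.55 and 2.54 in untreated E3.5 and E5.5 EpiSCs, against 0.49 in mES cells, with an estimate of 2.05 ± 0.31 (limma, adjusted p = 0.0637). Rxrg, the gamma form, was at -1.34 and -2.43 in the treated E3.5 and E5.5 EpiSCs, against 1.17 and 0.57 in the untreated ones. It fell by 2.76 ± 0.30 with the cell line as a block (limma, adjusted p = 0.0231), but did not pass without it (adjusted p = 0.0739). The list's medians were -0.03 with SB431542 in EpiSCs, beside -0.19 over all genes, and 0.24 for EpiSCs over mES cells, beside -0.06.

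Of 30 genes known to respond to retinoic acid in embryonic cells, 29 were tested. With SB431542 in EpiSCs 5 rose (0.892% of all genes rose), 0 fell (1.2% of all genes fell) and 24 did not pass, with a median of 0.33 beside -0.19 over all genes. The orphan nuclear receptor genes Nr2f1 and Nr2f2 rose by 6.19 ± 0.56 (limma, adjusted p = 0.0276) and 5.57 ± 0.35 (adjusted p = 0.0227). Nr2f2 stood at 4.10 and 3.49 in the treated E3.5 and E5.5 EpiSCs, against -1.99 and -1.56 in the untreated ones. Meis1, a homeodomain partner of Hox proteins, rose by 3.97 ± 0.27, the hindbrain gene Hoxb2 by 3.46 ± 0.40, and Plat, which encodes tissue plasminogen activator, by 2.18 ± 0.29 (limma, adjusted p = 0.0227, 0.0391 and 0.0471). Nr2f1 is also 1 of the 7 neural progenitor markers, whose sums of 120 and 112 on the treated arrays stand above, and their part in the list's rises was not tested. With the cell line as a block 6 of the list rose (2.14% of all genes rose) and 1 fell (2.87% of all genes fell), the additions being Meis2 (1.93, adjusted p = 0.0438) and the laminin gene Lamb1 (-2.56, adjusted p = 0.0375).

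Between untreated EpiSCs and mES cells, 4 of the 29 response genes rose (0.39% of all genes rose) and 1 fell (1.11% of all genes fell), with a median of 1.19 beside -0.06 over all genes. Among them Meis2 rose by 4.66 ± 0.53, Hoxb2 by 3.95 ± 0.48 and Meis1 by 3.42 ± 0.33 (limma, adjusted p = 0.0395, 0.0462 and 0.0286). Hoxb2 and Meis1 therefore rose both in untreated EpiSCs over mES cells and in treated over untreated EpiSCs. Stra8, which acts at entry into meiosis, fell by 9.57 ± 0.46 (limma, adjusted p = 0.0122). It was at -5.50 and -6.28 in untreated E3.5 and E5.5 EpiSCs, against 3.68 in mES cells, and was above background on 5 of the 6 arrays. The exception was the untreated E5.5 EpiSC array, whose signal enters the estimate as measured, so the size of the fall rests partly on a signal at background.

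**Figure D4:**
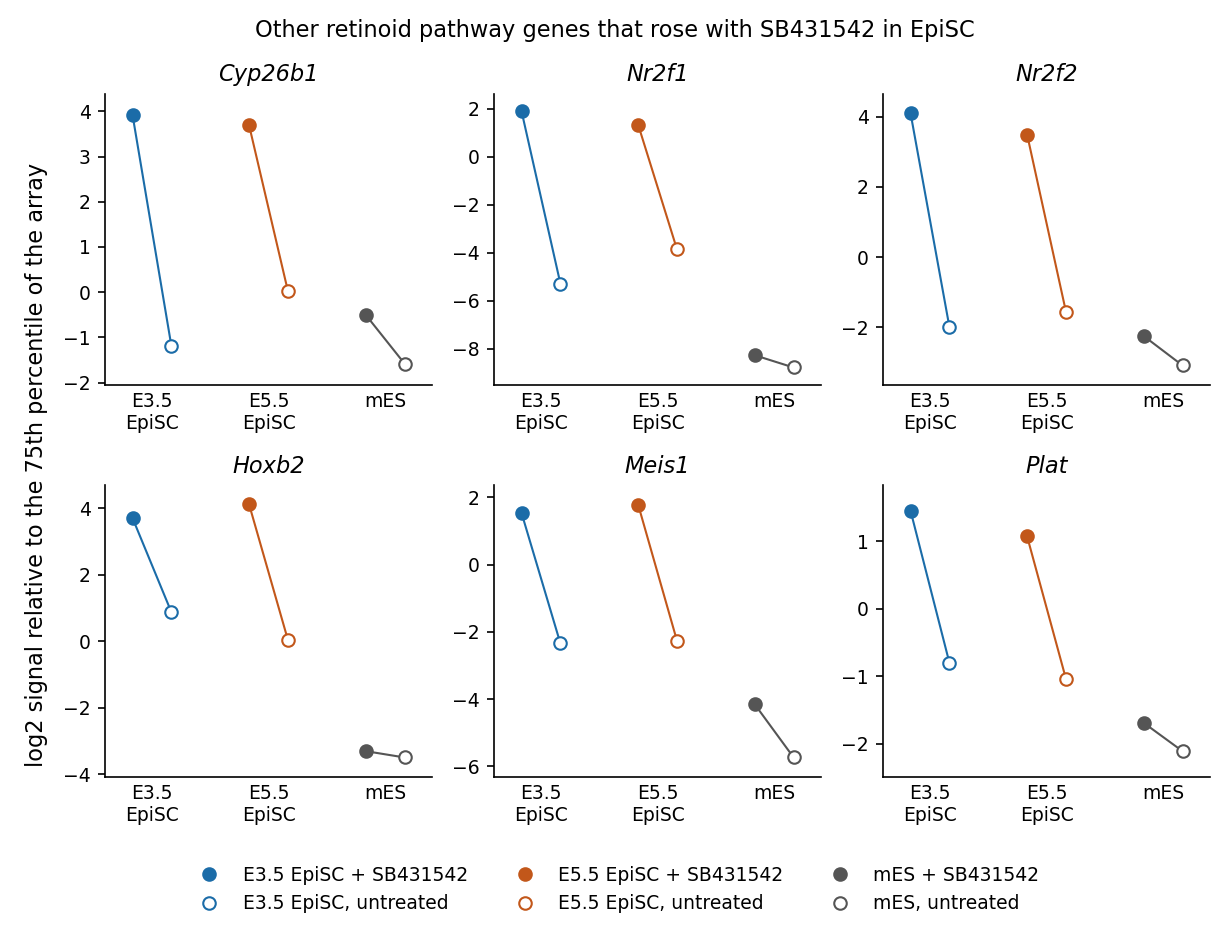
Log2 signal relative to the array's 75th percentile for the 6 genes of the 3 pathway lists that rose with SB431542 in EpiSCs, with filled points treated, open points untreated and a line joining the pair of each cell line. The genes were picked for this rise, so treated EpiSC points above untreated ones follow from the choice. In all 6 panels both treated EpiSC points also lie above both mES points, and the vertical scales differ between panels.

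For each of the 9 genes the 2 other genes with the most similar profile were found by the root mean square difference of centred log2 values over the 6 arrays, among 14467 genes. For Dhrs3 these were Cd59a (0.36) and Slc39a8 (0.59), for Cyp26a1 Flt1 (0.54) and Fst (0.66), and for Rarg Wdr31 (0.07) and Tmsb15a (0.16). Crabp1 and Crabp2 shared the same pair, Mapk10 and Wnt3a, at 0.27 and 0.29 from Crabp1 and at 0.33 and 0.28 from Crabp2. For Rarb they were Ptpn9 (0.13) and Zfp202 (0.14), for Aldh1a2 Map10 (0.19) and Zfp53 (0.2), for Stra6 Tmem52b (0.08) and Mitf (0.12), and for Rdh10 Ube2j1 (0.13) and P3h4 (0.16). The 6 points of a profile share lines and slides, and a small difference is easier to reach for a gene with a small range. Dhrs3, whose levels span 38.5-fold, was followed by Cd59a at 0.06 and 0.25 in the treated E3.5 and E5.5 EpiSCs, 3.79 and 4.32 in the untreated ones, and -1.20 and -1.11 in treated and untreated mES cells.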

How the data were processed

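The arrays measured Cy3-labelled RNA of 6 cell samples in 1 colour, per the labels. The deposited scanner files give each spot's intensity, linear and with background subtracted by Agilent Feature Extraction, version 10.7.1.1 per the file headers and 9.1 per the submitters' processing notes. Which applies was not settled. A deposited value table held the same intensity at 45018 of 45018 values on each array. The deposited background, saturation and outlier marks, which are yes-or-no values, came from the same program, per the file headers.

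Outlier and control spots were left out and repeat spots averaged. Values are log2 of the processed intensity minus the array's 75th percentile (intensities of 1190 to 1801). The files used here hold no gene-name column, so 24375 of 41174 probes were named by transcript accession through RefSeq (GRCm38.p6), which found all 9 genes. The file headers name another assembly, and sequences come from RefSeq alone. A gene is its brightest probe, tested if well above background on 1 array or more. Differences were tested with limma 3.58.1 under R 4.3.3 (lmFit, then eBayes, 4 arms, 2 residual degrees of freedom) and Benjamini-Hochberg adjustment at 0.05. The fit was checked on simulated data without line or slide differences, so that check does not cover them. Figures used matplotlib 3.10.9. The 2 EpiSC lines stand as replicates of their class, and lone mES arrays were taken to vary like them. In the 4-arm fit the residual spread of a gene comes only from differences between the 2 EpiSC lines, which lay on different slides. The labels name no separate cultures, so this spread is that of these samples. Line, slide and technical differences cannot be told apart in it. The lines pair treated with untreated arrays, and the line difference correlated at 0.27 between treated and untreated arrays over genes. With the line as a block, 1 residual degree of freedom is left, and every call that passed only with the block rests on it. Alternatives were normexp (on median spot and background signals, offset 50), quantile normalization, other filters and probe rules, the line as a block, slide 1 alone and each array left out.

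The 9 genes, the 3 lists and the markers were chosen with earlier results of these data known. Named were the 9 genes, list members that passed or had high estimates, markers, and the 2 nearest profiles of each of the 9. High-estimate list members are not all printed, and some genes that the rule names are not reported here.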

Additional observations from a re-analysis of the deposited data

Results flagged for a closer look

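Stra6 and Rdh10 drew attention because the EpiSC lines moved in opposite directions with SB431542. The log2 ratio of treated over untreated cells was 0.51 in the E3.5 pair and -0.14 in the E5.5 pair for Stra6. It was -0.87 in the E3.5 pair and 0.48 in the E5.5 pair for Rdh10. With 1 array a group the difference between lines was not tested, and line and slide cannot be told apart. None of the 4 ratios reached 2-fold. The second, dimmer Rdh10 probe gave the same pair of signs, but was past 2-fold in the E3.5 pair, at -4.26 in treated and -2.58 in untreated cells, and stood at -3.03 in treated and -3.19 in untreated E5.5 cells.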

How the results depend on the processing

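Each of 4 arms holds 1 or 2 arrays, and that number limits every estimate. The comparison of EpiSCs with mES cells rests on 1 untreated mES array, which could not be left out. The difference between the classes needs both mES arrays, so neither was left out there. Of the 9 genes, 1 passed between EpiSCs and mES cells, and leaving out each array in turn gave 0 to 1. For SB431542 in EpiSCs 2 passed, and 0 to 2 did so with an array left out. The counts of 0 came without either treated EpiSC array, when no gene of the table passed (limma; 3279 at an unadjusted p under 0.05 between EpiSCs and mES cells without either, and 5029 without the E5.5 and 2418 without the E3.5 treated array for SB431542 in EpiSCs). With normexp 4 passed, Crabp1 and Rarg joining Dhrs3 and Crabp2. Across the lines 0 passed, and 0 to 3 did so with an array left out, the 3 being without either mES array. The difference between the classes gave 0 throughout.

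Over all genes, 338 passed for SB431542 in EpiSCs, against 810 with the cell line as a replicate block, 540 when only genes above background on all 6 arrays were tested, 587 probes of 37254, and 197 without the untreated E3.5 EpiSC array. The block changed the calls of the list genes and of Cyp26a1 given above, and of no other of the 9 genes. Between EpiSCs and mES cells, 63 higher and 179 lower calls became 125 and 151 when only genes above background on all 6 arrays were tested, and 79 and 120 with normexp, which moved the median of all genes to 0.14 in place of -0.06.

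The sign turned for Aldh1a2, Rdh10 and Stra6, none of which passed, and the cause was not tested. With an array left out, the estimates for SB431542 in EpiSCs ran from -1.05 to 0.72 for Aldh1a2, -0.81 to 0.42 for Rdh10 and -0.33 to 0.71 for Stra6. Across the lines they ran from -0.16 to 0.06 for Aldh1a2 and -0.50 to 0.17 for Rdh10. Slide 1 alone gave 0.04 and 0.17 there. For the difference between the classes the ranges were -1.31 to 0.45, -0.68 to 0.55 and -0.57 to 0.48, and quantile normalization gave 0.02 for Stra6. On slide 1 alone Rdh10 stood at 0.48 for SB431542 in EpiSCs and at 0.60 for the difference between the classes, and Stra6 at -0.14 for SB431542 in EpiSCs. Crabp1 (4.53), Crabp2 (4.79) and Rarg (-1.58) kept their directions there.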

Other observations

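The direct repeat with a spacing of 5 bases, shown above for Rarb and Cyp26a1, was found in the promoters of 31 named genes, of which 8 were tested on these arrays. With SB431542 in EpiSCs 0 of the 8 passed without the block (0.892% of all genes rose and 1.2% fell, so this count is near the background), and their median was -0.06, beside -0.19 over all genes. Between untreated EpiSCs and mES cells 0 of the 8 passed (0.39% of all genes rose and 1.11% fell), with a median of 0.13 beside -0.06 over all genes. Besides Cyp26a1 and Rarb, the values furthest from 0 were -2.23 for Ppbp (adjusted p = 0.207 by limma) and -1.65 for Blvrb (adjusted p = 0.0608) with SB431542, and 2.53 for Prokr2 between the classes (adjusted p = 0.139). These genes were named after their values were seen.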
